A study of Homo sapiens with 7 samples.

Results

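The 31 genes described here carry out or control the making, uptake and movement of cholesterol. They were chosen by name: 19 enzymes that lead from acetyl-CoA to cholesterol and isoprenoids, 6 regulators, and 6 proteins of cholesterol uptake, transport and storage. All 31 were among the 33117 genes listed in the deposited tables, and all 31 averaged at least 1 TPM (a transcript level scaled for gene length and for the sum of each library), so that each was tested among 16724 genes. NPC1L1 passed that filter only through the Lat-M libraries.

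RNA sequencing was done on 769-P, an established human line of clear cell renal cell carcinoma grown in serum-containing medium. There were 2 libraries of Lat-M2, 2 of Lat-M1 and 3 of PA. Lat-M stands for latent metastatic in the series title, PA is not spelled out in the labels, and neither the meaning of the first number of a Lat-M library nor the clonality of the lines is stated. No treatment is given for any group, and the labels do not state whether libraries of a group came from separate cultures. The p-values therefore set differences between groups against the spread of these libraries alone, and that spread may be technical.

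Cholesterol is built from acetyl-CoA through mevalonate, farnesyl pyrophosphate, squalene and lanosterol. When sterols in the endoplasmic reticulum run low, the escort SCAP carries the transcription factor SREBP2, the product of SREBF2, to the Golgi, where it is cut and released to switch on the synthesis enzymes. When sterols are plentiful, INSIG proteins hold SCAP back, and the liver X receptors, which bind oxysterols, raise genes of cholesterol disposal. Clear cell renal carcinoma takes its name from cells that look empty after stored cholesterol ester and triglyceride are washed out in histology.

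The libraries held 16136 to 16872 genes at 1 TPM or more, and read depth is unknown because TPM keeps no read totals. Of all TPM, 4 structural RNAs (RN7SL1, RN7SL2, RN7SK, RMRP) took 25.3 ± 3.42% in Lat-M2, 20.2 ± 2.30% in Lat-M1 and 30.5 ± 1.17% in PA (SD; n = 2, 2 and 3). Over all tested genes the median log2 fold change was 0.14 for Lat-M2 against PA, 0.16 for Lat-M1 against PA and -0.011 for Lat-M2 against Lat-M1. Where calls differ, values are also given after median-ratio scaling of the libraries (called scaled below), which brought these medians to -0.0010, 0.0032 and 0.011. The part of the structural RNAs in the results was not tested beyond this scaling and a fit without them. Of 9 markers of renal tubule and renal carcinoma, 7 reached 1 TPM, with PAX8 at 65.7 to 87.9 TPM over the 7 libraries, while CA9 and NDUFA4L2 stayed below 0.157 TPM. Of the endothelial markers none reached 1 TPM, with CDH5 listed at 0 throughout. Of 5 leukocyte markers listed, CD68, which also marks lysosomes, was the 1 above 1 TPM, and the list summed to 39.9 to 42.2 TPM in Lat-M2, 14.3 to 15.7 TPM in Lat-M1 and 45.6 to 48.3 TPM in PA, with PTPRC at most 0.0121 TPM. Of 7 fibroblast and pericyte markers, 2 reached 1 TPM (COL1A1 and RGS5), and the list summed to 6.91 to 8.87 TPM in Lat-M2, 21.9 to 23.8 TPM in Lat-M1 and 5.18 to 5.54 TPM in PA, with PDGFRA at most 0.0101 TPM. Of 4 hepatocyte and adipocyte markers listed, 2 reached 1 TPM (SERPINA1 and CIDEC), and the list summed to 13.4 to 14.6 TPM in Lat-M2, 12.4 to 12.6 TPM in Lat-M1 and 26.4 to 27.1 TPM in PA.

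As a set these genes were abundant. Their median level was 52.6 TPM, against 11.97 TPM for all tested genes, and 11 of the 31 averaged at least 100 TPM. INSIG1 was the highest at 411 to 552 TPM, followed in mean level by the enzymes MSMO1, CYP51A1 and SQLE. The lowest were NR1H3 at 1.54 to 2.37 TPM and TM7SF2 at 1.63 to 3.22 TPM. For 18 genes the highest of the 7 libraries was under 1.5 times the lowest, and for NPC1L1 it was 41.6 times the lowest.

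**Figure D1:**
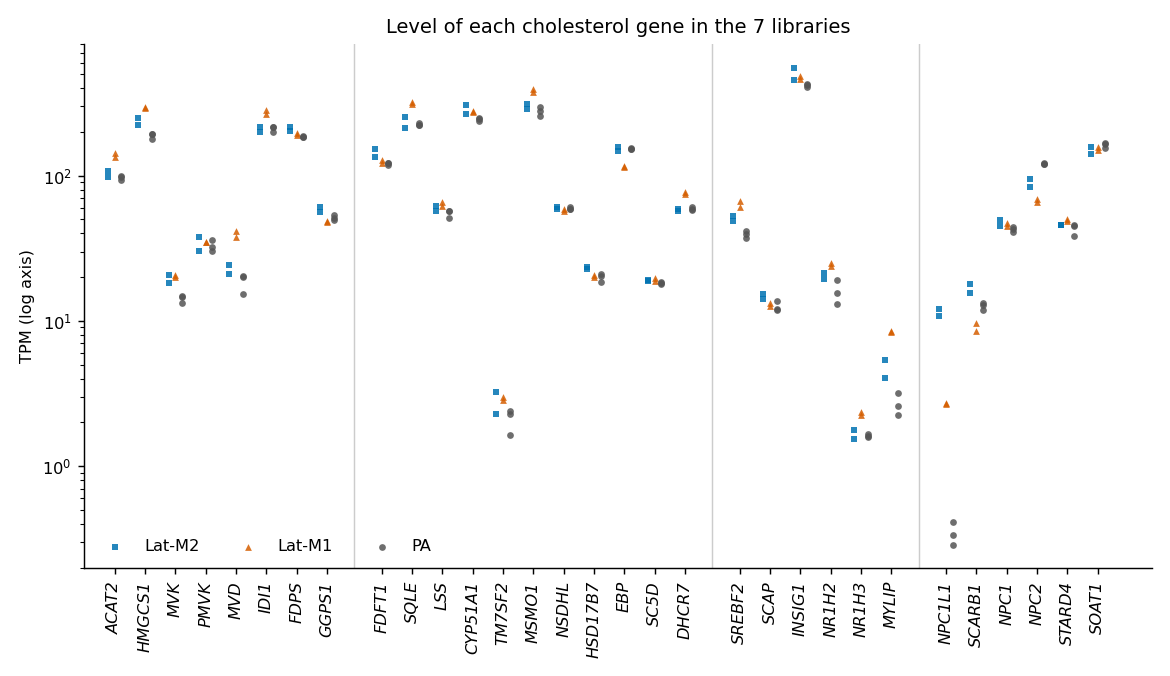
Level of each of the 31 genes in TPM on a log axis, with a point per library: squares are Lat-M2, triangles Lat-M1 and circles PA, and grey lines part the mevalonate and isoprenoid enzymes, the squalene and sterol enzymes, the regulators, and the genes of uptake, transport and storage. INSIG1 lies at 411 to 552 TPM, and NPC1L1 spans 0.288 to 11.98 TPM.

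Against PA, 7 of the 31 genes were higher in Lat-M2 and 1 was lower (limma, Benjamini-Hochberg adjusted over all tested genes), where 14.9% of all tested genes were called (12.7% higher, 2.24% lower). In Lat-M1 against PA 12 were higher and 3 lower, or 48.4%, close to the 44.8% called among all tested genes (33.2% higher, 11.6% lower). The median log2 fold change of the 31 genes was 0.18 for Lat-M2 against PA and 0.20 for Lat-M1 against PA. Both Lat-M pairs are compared with the same PA libraries. In both pairs HMGCS1, MVK, SREBF2, MYLIP and NPC1L1 rose and NPC2 fell, SCARB1 went in opposite directions, and 15 genes were called in neither. The shares of all tested genes called in both pairs or in neither were not counted. These overlaps therefore cannot be read as particular to the 31 genes. Scaling gave 4 higher and 5 lower in Lat-M2 and 12 higher and 8 lower in Lat-M1, where 15.9% of all tested genes (7.44% higher, 8.42% lower) and 46.9% (23.9% higher, 23% lower) were called. The libraries of the groups did not overlap for 18 of the 31 genes in Lat-M2 against PA and for 27 in Lat-M1 against PA, beside 49.8% and 68% of all tested genes. At least 2-fold and called were 1 of the 31 in Lat-M2 (NPC1L1) and 3 in Lat-M1 (MVD, MYLIP and NPC1L1), beside 1.49% and 7.52% of all tested genes. Since NPC1L1 passed the filter only through the Lat-M libraries, its part in any count of higher genes, here and below, cannot be read as support.

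Many Lat-M2 calls against PA changed when 1 library was left out, among the 31 genes and among all tested genes. The Lat-M1 libraries enter that comparison only through the filter and the spread shared by the 3 groups. Why calls were lost was not tested. Over all tested genes, 2119 higher became 975 without PA 1, 881 without PA 2 and 1054 without PA 3. The 7 higher genes became 2 without PA 1, 5 without PA 2, 2 without PA 3, 4 without Lat-M1-1, 4 without Lat-M1-2, 1 without Lat-M2-1 and 11 without Lat-M2-2. With any 1 library left out NPC1L1 and NPC2 were still called, and HMGCS1, MVK, FDFT1, SREBF2, MYLIP and SCARB1 each lost the call in at least 1 fit. In Lat-M1 against PA, 14 of the 15 called genes kept their calls in all 7 fits, the exception being NR1H2. Over all tested genes, 5558 higher in Lat-M1 became 4857 without PA 1, 4903 without PA 2 and 5042 without PA 3. The share of all called genes that kept their calls in every such fit was not counted. Taking the 4 Lat-M libraries as 1 group, a fit whose spread includes the difference between the pairs, called MVK alone, higher, and none lower. In that fit limma left 10 of the 31 at an unadjusted p under 0.05 and called 2.9% of all tested genes (2.51% higher, 0.389% lower; 0.724% called and at least 2-fold). Scaling ended the call of MVK and called NPC2 lower (-0.79, scaled limma adjusted p = 0.0462), beside 1.25% of all tested genes (0.677% higher, 0.569% lower). The 4 Lat-M libraries did not overlap PA for 14 of the 31 genes, beside 28.5% of all tested genes. MVK lost that call without any 1 library other than Lat-M2-2 (highest limma adjusted p = 0.192).

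**Figure D2:**
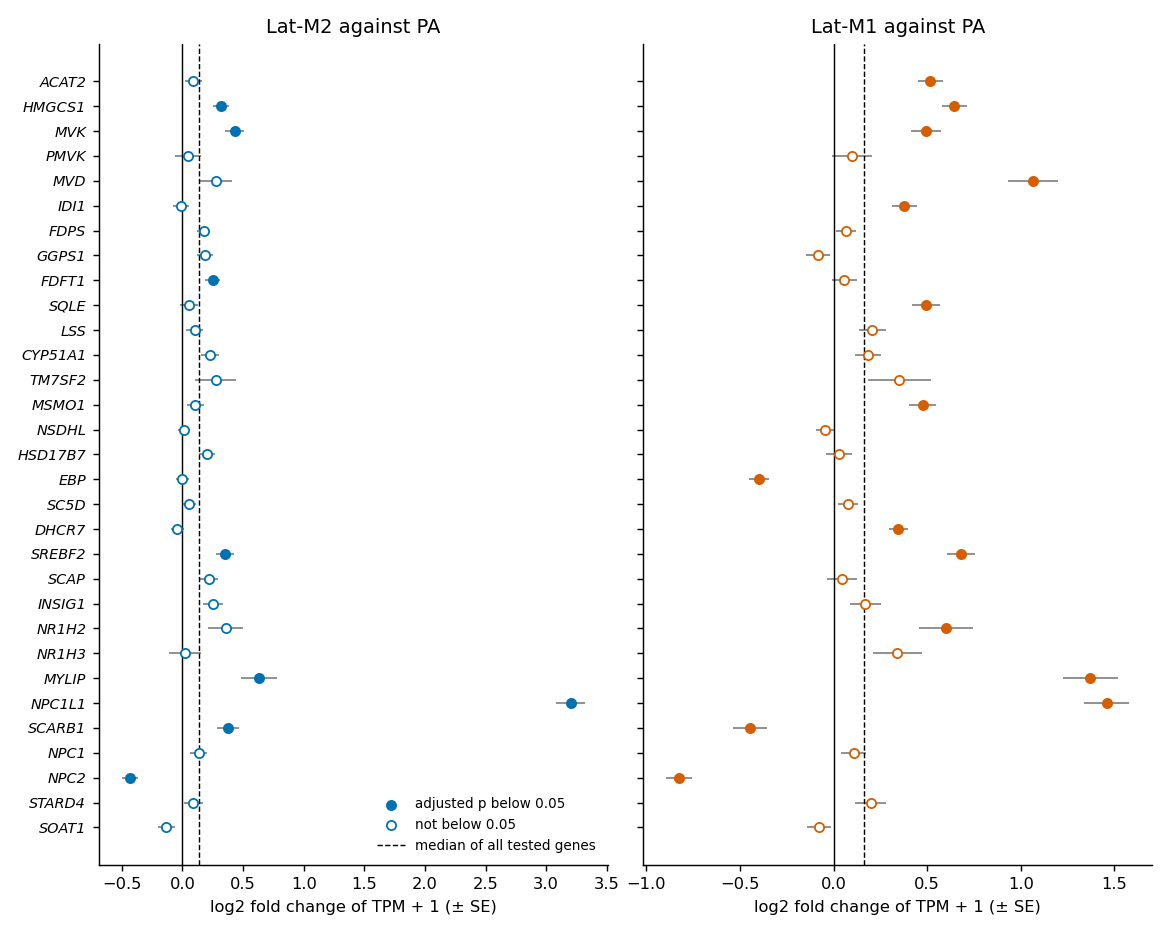
Log2 fold change of TPM + 1 with its SE for the 31 genes in Lat-M2 against PA (left) and Lat-M1 against PA (right); the 2 panels have their own scales, filled points have an adjusted p below 0.05, and the dashed line is the median of all tested genes (0.14 and 0.16). NPC1L1 lies far to the right in Lat-M2 at 3.20, and SCARB1 is right of 0 in Lat-M2 and left of it in Lat-M1.

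Promoter sequence was looked at because synthesis genes and SREBF2 itself are textbook targets of SREBP2, which acts beside the general factors NF-Y and Sp1. Windows of 250 bases before the annotated start came from RefSeq on GRCh38.p14, another build than the hg19 of the submitters' notes, and were found for 27 of the 31 genes. The NF-Y box CCAAT, on either strand, was in 22 of these 27, or 81.5%, and in 42.4% of the tested genes that have a promoter in that table. The Sp1 box GGGCGG was in 25 of 27, or 92.6%, and in 75.0% of those genes. An E-box, CACGTG, was in 3 of 27 (INSIG1, SC5D and SCAP), or 11.1%, and in 11.2%. The core of the sterol regulatory element, TCACNCCAC, was in 1 of 27, SREBF2, and in 1.26%. Only exact matches within these 250 bases were counted, so an element with other letters or elsewhere would be missed. The count therefore does not show that the other genes lack such an element. Genes with several annotated starts count once where any window has a match, and no test was made. The windows of 5 genes follow because these genes carry the results below: SREBF2, HMGCS1 and MVD as genes of the synthesis pathway that were higher, NPC1L1 as the largest rise and NPC2 as the gene lower in both pairs. Capitals mark exact matches to the 4 motifs on either strand, and in SREBF2 the longest run of capitals is the sterol regulatory element core.
SREBF2 (chr22:41832855-41833104, plus strand): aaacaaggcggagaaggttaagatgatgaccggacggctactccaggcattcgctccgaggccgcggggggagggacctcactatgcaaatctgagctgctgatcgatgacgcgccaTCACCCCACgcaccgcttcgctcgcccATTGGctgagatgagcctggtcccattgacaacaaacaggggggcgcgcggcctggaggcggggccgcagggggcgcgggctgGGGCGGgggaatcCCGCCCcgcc
HMGCS1 (chr5:43313413-43313662, minus strand): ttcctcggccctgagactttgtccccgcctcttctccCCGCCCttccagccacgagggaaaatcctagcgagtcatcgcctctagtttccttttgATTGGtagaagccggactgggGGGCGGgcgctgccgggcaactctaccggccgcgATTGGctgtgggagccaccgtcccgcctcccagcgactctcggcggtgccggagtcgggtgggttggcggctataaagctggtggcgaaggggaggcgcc
MVD (chr16:88663092-88663341, minus strand): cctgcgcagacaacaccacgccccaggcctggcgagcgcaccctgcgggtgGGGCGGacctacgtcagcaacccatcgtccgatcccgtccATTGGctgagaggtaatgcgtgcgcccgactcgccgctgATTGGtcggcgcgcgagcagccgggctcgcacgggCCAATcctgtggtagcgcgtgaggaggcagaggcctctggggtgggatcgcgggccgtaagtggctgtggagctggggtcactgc
NPC1L1 (chr7:44541331-44541580, minus strand): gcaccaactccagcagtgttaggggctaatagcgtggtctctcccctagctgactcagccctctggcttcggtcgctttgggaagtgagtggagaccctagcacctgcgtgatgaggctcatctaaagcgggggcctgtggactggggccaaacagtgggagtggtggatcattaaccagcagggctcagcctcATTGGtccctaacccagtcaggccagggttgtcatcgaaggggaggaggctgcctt
NPC2 (chr14:74493513-74493762, minus strand): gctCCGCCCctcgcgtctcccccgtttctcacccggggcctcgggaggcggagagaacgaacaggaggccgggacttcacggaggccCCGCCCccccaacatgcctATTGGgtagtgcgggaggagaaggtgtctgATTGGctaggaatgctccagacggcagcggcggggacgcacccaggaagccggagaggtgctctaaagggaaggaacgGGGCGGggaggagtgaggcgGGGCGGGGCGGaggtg
The SREBF2 core match lies 133 to 125 bases before the start, with an NF-Y box 106 to 102 bases before it. HMGCS1 has 2 NF-Y boxes, MVD has 3, NPC2 has 2 and NPC1L1 has 1, and NPC1L1 has none of the other motifs in this window.

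Of the 8 genes of the mevalonate and isoprenoid arm, 5 were higher in Lat-M1 against PA, none was lower and the median log2 fold change was 0.44, beside 33.2% higher and 11.6% lower among all tested genes and their median of 0.16. In Lat-M2 against PA 2 were higher and none lower, with a median of 0.18, beside 12.7% higher, 2.24% lower and a median of 0.14. After scaling 5 were higher and 2 lower in Lat-M1, and 2 were higher and 1 lower in Lat-M2. The summed level of the 8 genes was 936 and 848 TPM in Lat-M2, 1024 and 1066 TPM in Lat-M1, and 809, 775 and 810 TPM in PA.

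HMGCS1, the synthase that condenses acetyl-CoA and acetoacetyl-CoA, was at 249 and 223 TPM in Lat-M2, 293 and 299 TPM in Lat-M1, and 193, 180 and 194 TPM in PA. The groups did not overlap, and Lat-M1 was the highest. It rose by 0.32 ± 0.066 on the log2 scale in Lat-M2 (SE; limma adjusted p = 0.024) and by 0.64 ± 0.066 in Lat-M1 (limma adjusted p = 0.000269). Lat-M2 was lower than Lat-M1 (-0.33 ± 0.073, limma adjusted p = 0.0119), a call that ended without Lat-M1-1 or without Lat-M1-2 (highest limma adjusted p = 0.0701). Both rises kept their calls after scaling (0.17 and 0.47), and the rise in Lat-M2 lost it without any 1 PA library or without Lat-M2-1 (highest limma adjusted p = 0.096).

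MVK, the kinase that phosphorylates mevalonate, was at 20.8 and 18.3 TPM in Lat-M2, 20.01 and 20.9 TPM in Lat-M1, and 13.2, 14.8 and 14.6 TPM in PA. Every Lat-M library stood above every PA library, and the Lat-M pairs overlapped. The rise was 0.43 ± 0.080 in Lat-M2 (limma adjusted p = 0.0175, and 0.0966 without Lat-M2-1) and 0.50 ± 0.080 in Lat-M1 (limma adjusted p = 0.0022). MVD, the decarboxylase that makes isopentenyl pyrophosphate, was at 24.3 and 20.9 TPM in Lat-M2, 37.7 and 41.7 TPM in Lat-M1, and 15.3, 20.2 and 20.3 TPM in PA. Both Lat-M1 libraries stood above all others (1.06 ± 0.13, a fold of 2.09; limma adjusted p = 0.000846). Lat-M2 was not called against PA (0.28 ± 0.13, limma adjusted p = 0.205) and lay below Lat-M1 (-0.79 ± 0.15, limma adjusted p = 0.00628).

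ACAT2, the cytosolic thiolase that joins acetyl-CoA units, was at 108 and 97.2 TPM in Lat-M2, 134 and 142 TPM in Lat-M1, and 97.2, 92.8 and 99.0 TPM in PA. It was higher in Lat-M1 (0.52 ± 0.067, limma adjusted p = 0.000793), and Lat-M2 overlapped PA. IDI1, the isomerase that follows MVD, was likewise highest in Lat-M1, at 216 and 200.3 TPM in Lat-M2, 264 and 283 TPM in Lat-M1, and 217, 199 and 214 TPM in PA. It was higher in Lat-M1 (0.38 ± 0.066, limma adjusted p = 0.00307), and after scaling it was lower in Lat-M2 against PA (-0.17, scaled limma adjusted p = 0.0466; -0.013 and 0.907 unscaled). ACAT2 and IDI1 were both lower in Lat-M2 than in Lat-M1 (-0.42 and -0.39).

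The remaining genes of this arm changed little. FDPS, which makes farnesyl pyrophosphate, was at 218 and 202 TPM in Lat-M2, 191 and 197 TPM in Lat-M1, and 187, 183 and 185 TPM in PA. Its unscaled differences from PA were not called (limma adjusted p = 0.0685 and 0.363), and after scaling it was lower in Lat-M1 (-0.11, scaled limma adjusted p = 0.039; 0.065 unscaled). GGPS1, which makes the longer geranylgeranyl pyrophosphate, was at 61.2 and 55.9 TPM in Lat-M2, 48.8 and 48.1 TPM in Lat-M1, and 53.5, 49.1 and 51.4 TPM in PA. GGPS1 was higher in Lat-M2 than in Lat-M1 (0.27 ± 0.070, limma adjusted p = 0.0219), a call that ended without Lat-M1-1, Lat-M1-2 or Lat-M2-1 (highest limma adjusted p = 0.108), and after scaling it was lower in Lat-M1 than in PA (-0.26, scaled limma adjusted p = 0.0077; -0.082 unscaled). PMVK, the kinase that acts after MVK, stayed at 30.2 to 37.8 TPM in all libraries.

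Of the 11 enzymes from squalene to cholesterol, 3 were higher and 1 lower in Lat-M1 against PA (median 0.18), and 1 was higher in Lat-M2 against PA (median 0.10). In Lat-M1 these shares lie at or below the 33.2% higher and 11.6% lower among all tested genes, and in Lat-M2 the share lies below the 12.7% higher. After scaling 3 were higher and 3 lower in Lat-M1, and none was higher and 2 were lower in Lat-M2. In that scaled Lat-M2 fit limma left 13 of all 31 genes, in either direction, at an unadjusted p under 0.05. SQLE, the epoxidase that is a slow step of the pathway, was at 253 and 214 TPM in Lat-M2, 312 and 321 TPM in Lat-M1, and 222, 222 and 229 TPM in PA. It rose in Lat-M1 (0.50 ± 0.075, limma adjusted p = 0.00161), and the Lat-M2 libraries lay on either side of PA. MSMO1, an oxidase that removes methyl groups from the sterol ring, was at 310 and 288 TPM in Lat-M2, 379 and 394 TPM in Lat-M1, and 298, 259 and 278 TPM in PA. It too rose in Lat-M1 (0.48 ± 0.073, limma adjusted p = 0.00169). DHCR7, the reductase of the last step, was at 58.6 and 56.8 TPM in Lat-M2, 74.5 and 77.3 TPM in Lat-M1, and 58.4, 61.1 and 59.2 TPM in PA. DHCR7 was higher in Lat-M1 (0.35 ± 0.052, limma adjusted p = 0.00158) and, after scaling, lower in Lat-M2 (-0.19, scaled limma adjusted p = 0.0302; -0.043 unscaled). All 3 were lower in Lat-M2 than in Lat-M1, by -0.44, -0.37 and -0.39 on the log2 scale, and the call of MSMO1 ended without Lat-M1-2 (limma adjusted p = 0.0673).

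EBP, the isomerase that moves a double bond in the sterol ring, went the other way in Lat-M1. It was at 158 and 148 TPM in Lat-M2, 115 and 117 TPM in Lat-M1, and 153, 155 and 152 TPM in PA. Both Lat-M1 libraries lay below all others, a fall of 0.40 ± 0.052 on the log2 scale against PA (limma adjusted p = 0.000852), while Lat-M2 and PA overlapped. After scaling EBP was also lower in Lat-M2 (-0.15, scaled limma adjusted p = 0.0466; 0.00016 and 0.999 unscaled). Lat-M2 was higher than Lat-M1 (0.40 ± 0.057, limma adjusted p = 0.00177). FDFT1, the squalene synthase, was at 153 and 135 TPM in Lat-M2, 123 and 129 TPM in Lat-M1, and 122, 119 and 121 TPM in PA. It rose in Lat-M2 (0.25 ± 0.065, limma adjusted p = 0.0459), a call that held in only 1 of the 7 fits with a library left out, that without Lat-M2-2, and that ended on scaling. In Lat-M1 the scaled value was below PA (-0.12, scaled limma adjusted p = 0.034; 0.058 unscaled).

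The other 6 enzymes of this arm were not called in any of the 3 comparisons before scaling. NSDHL, which acts with MSMO1, ranged over the 7 libraries from 57.03 to 61.3 TPM and was lower in Lat-M1 after scaling (-0.22, scaled limma adjusted p = 0.00733). LSS, the cyclase that forms lanosterol, ranged from 51.2 to 65.6 TPM, and CYP51A1, the lanosterol demethylase, from 238 to 308 TPM. TM7SF2, a sterol reductase, was the scarcest. HSD17B7, a ketoreductase, ranged from 18.5 to 23.4 TPM, and SC5D, a desaturase, from 17.9 to 19.6 TPM. In Lat-M1 against PA, genes next to each other in the pathway did not always share a call. IDI1 was called higher and FDPS after it was not, and SQLE was called higher and LSS after it was not (limma adjusted p = 0.0509). For FDPS and LSS, too, both Lat-M1 libraries lay above PA before scaling (0.065 and 0.21). After scaling FDPS was lower in Lat-M1 (-0.11, scaled limma adjusted p = 0.039), and LSS was not called (0.031, scaled limma adjusted p = 0.64). Whether such neighbours differed from each other was not tested.

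Among the regulators, 2 of 6 were higher in Lat-M2 against PA and 3 of 6 in Lat-M1 against PA, beside 12.7% and 33.2% of all tested genes. After scaling 1 was higher in Lat-M2 and 3 in Lat-M1. No regulator was called lower in either, where limma left 15 and 19 of the 31 genes at an unadjusted p under 0.05. SREBF2 was at 52.5 and 48.5 TPM in Lat-M2, 60.3 and 67.2 TPM in Lat-M1, and 37.4, 41.5 and 39.4 TPM in PA. The 3 groups did not overlap. Its rise was 0.35 ± 0.075 in Lat-M2 (limma adjusted p = 0.0262; lost without PA 1, PA 3 or Lat-M2-1, highest 0.134) and 0.68 ± 0.075 in Lat-M1 (limma adjusted p = 0.000364), a fold of 1.60 on the scale of TPM + 1. Lat-M2 was lower than Lat-M1 (-0.33 ± 0.082, limma adjusted p = 0.0181), a call that ended without Lat-M1-2 or without Lat-M2-2 (highest limma adjusted p = 0.118). The partners that control SREBP2 were not called: SCAP was at 15.3 and 14.3 TPM in Lat-M2, 12.7 and 13.4 TPM in Lat-M1, and 11.9, 13.8 and 12.1 TPM in PA. INSIG1, itself a target of SREBP2, was at 552 and 454 TPM in Lat-M2, 464 and 483 TPM in Lat-M1, and 429, 411 and 421 TPM in PA. All Lat-M libraries lay above all PA libraries for INSIG1, and neither difference passed the test (0.25 ± 0.084 and 0.17 ± 0.084, limma adjusted p = 0.087 and 0.143). Scaling left 0.099 and -0.0075.

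MYLIP, a ubiquitin ligase that sends lipoprotein receptors to degradation and is a target of the liver X receptors, had the largest rise among the regulators. It was at 5.36 and 4.02 TPM in Lat-M2, 8.47 and 8.40 TPM in Lat-M1, and 2.24, 3.18 and 2.58 TPM in PA. The groups did not overlap, and both Lat-M1 libraries were the highest. The log2 fold change was 1.37 ± 0.15 in Lat-M1 (limma adjusted p = 0.000325) and 0.63 ± 0.15 in Lat-M2 (limma adjusted p = 0.0331), and the Lat-M2 call ended on scaling (scaled limma adjusted p = 0.0539). It also ended without PA 1, PA 3, Lat-M1-1, Lat-M1-2 or Lat-M2-1 (highest limma adjusted p = 0.189). Lat-M2 was lower than Lat-M1 (-0.74 ± 0.16, limma adjusted p = 0.0106), a call that ended without Lat-M1-1, Lat-M1-2 or Lat-M2-2 (highest limma adjusted p = 0.0592). NR1H2, the liver X receptor found in most tissues, was at 21.4 and 19.6 TPM in Lat-M2, 23.8 and 25.1 TPM in Lat-M1, and 13.1, 19.2 and 15.6 TPM in PA. It rose in Lat-M1 (0.60 ± 0.14, limma adjusted p = 0.0134), a call that ended when either Lat-M1 library was left out (highest limma adjusted p = 0.086). NR1H3, the liver X receptor of liver, macrophages and fat, was at 1.77 and 1.54 TPM in Lat-M2, 2.25 and 2.37 TPM in Lat-M1, and 1.61, 1.58 and 1.66 TPM in PA, and was not called (limma adjusted p = 0.0714 for Lat-M1).

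Of the 6 genes of uptake, transport and storage, 2 were higher and 1 lower in Lat-M2 against PA (12.7% and 2.24% of all tested genes), and 1 was higher and 2 lower in Lat-M1 against PA (33.2% and 11.6%). After scaling 1 was higher and 2 lower in Lat-M2, and 1 was higher and 3 lower in Lat-M1. Among the 31 genes NPC1L1 had the largest fold change in each of these pairs. NPC1L1, the sterol transporter of the intestinal brush border and the target of ezetimibe, was at 11.98 and 10.8 TPM in Lat-M2, 2.72 and 2.67 TPM in Lat-M1, and 0.333, 0.414 and 0.288 TPM in PA. Each group stood clear of the others, with Lat-M2 the highest. The log2 fold change of TPM + 1 was 3.20 ± 0.12 in Lat-M2 (limma adjusted p = 1.66e-05), rank 5 from the top of 16724 tested genes, and 1.46 ± 0.12 in Lat-M1 (limma adjusted p = 9.13e-05), where its rank was 377. Lat-M2 exceeded Lat-M1 by 1.74 ± 0.13 (limma adjusted p = 8.39e-05). The added 1 TPM understates these differences, since PA lay below 1 TPM. NPC1L1 was called higher in these 3 comparisons under every alternative that tested it; a minimum mean of 5 TPM leaves it out. Its protein-coding neighbours NUDCD3, DDX56, TMED4 and OGDH, in RefSeq gene order, were not called in these comparisons (lowest limma adjusted p = 0.254), YKT6 was higher in Lat-M1 against PA (0.23 ± 0.060, limma adjusted p = 0.0184) and lower in Lat-M2 against Lat-M1 (-0.30 ± 0.066, limma adjusted p = 0.0106), and CAMK2B was under 0.131 TPM.

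SCARB1, the receptor that takes up cholesterol ester from high density lipoprotein, was at 17.99 and 15.6 TPM in Lat-M2, 8.51 and 9.59 TPM in Lat-M1, and 11.97, 13.3 and 12.8 TPM in PA. Lat-M2 lay above PA and Lat-M1 below it, with no overlap. The log2 fold change against PA was 0.37 ± 0.090 in Lat-M2 (limma adjusted p = 0.0365) and -0.45 ± 0.090 in Lat-M1 (limma adjusted p = 0.00593). The rise in Lat-M2 held in only 1 of the 7 fits with a library left out, that without Lat-M2-2 (highest limma adjusted p = 0.191), and ended on scaling (scaled limma adjusted p = 0.0547), whereas the fall in Lat-M1 held in all 7. The difference between the pairs was 0.82 ± 0.099 (limma adjusted p = 0.000765).

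NPC2 binds cholesterol inside lysosomes and hands it to the membrane protein NPC1. It was at 95.0 and 83.4 TPM in Lat-M2, 65.6 and 69.4 TPM in Lat-M1, and 119.9, 122 and 119 TPM in PA. The groups did not overlap, and PA was the highest. NPC2 fell by 0.43 ± 0.068 in Lat-M2 (limma adjusted p = 0.011) and by 0.83 ± 0.068 in Lat-M1 (limma adjusted p = 8.78e-05), and Lat-M2 was higher than Lat-M1 (0.40 ± 0.074, limma adjusted p = 0.00558). Scaling made both falls larger (-0.58 and -1.003). NPC1 was at 49.3 and 44.7 TPM in Lat-M2, 44.7 and 47.4 TPM in Lat-M1, and 40.6, 43.2 and 44.3 TPM in PA, and was not called. STARD4, a cytosolic sterol carrier, stayed at 38.4 to 50.3 TPM and was not called. SOAT1, which esterifies cholesterol for storage, was at 156 and 141 TPM in Lat-M2, 150.0 and 158 TPM in Lat-M1, and 167, 156 and 165 TPM in PA. SOAT1 was not called unscaled (-0.13 and -0.078), and after scaling it was lower in Lat-M2 (-0.28, scaled limma adjusted p = 0.00733) and in Lat-M1 (-0.26, scaled limma adjusted p = 0.00241).

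**Figure D3:**
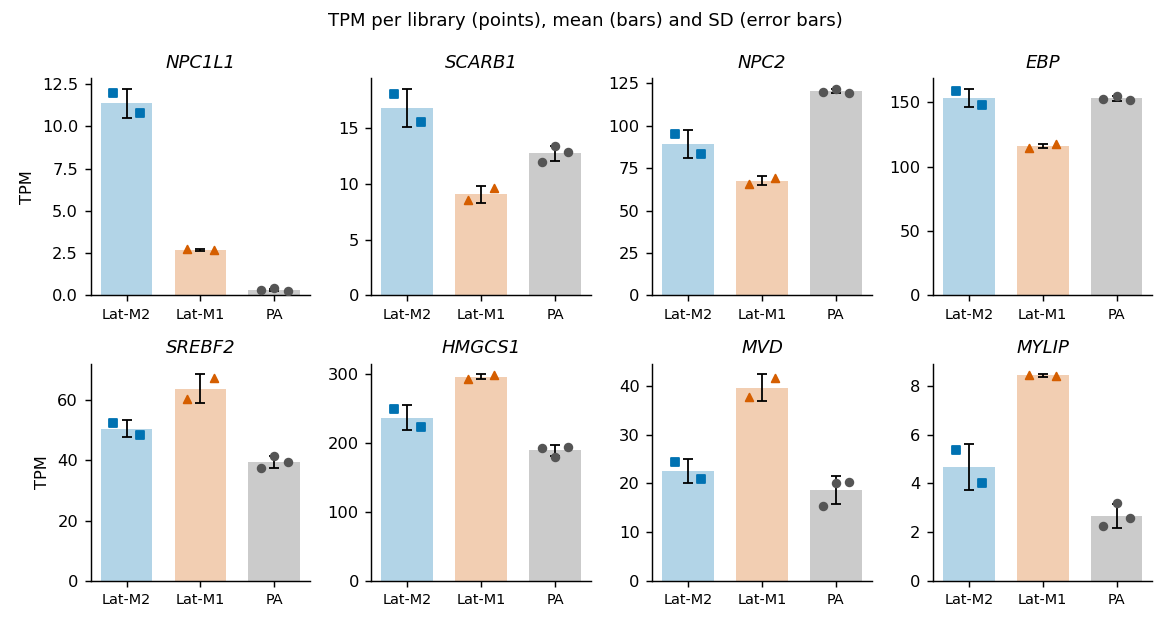
TPM of 8 genes in Lat-M2, Lat-M1 and PA, with points for libraries, bars for means and error bars for the SD (n = 2, 2 and 3); all axes start at 0. SCARB1 lies above PA in Lat-M2 and below it in Lat-M1, EBP is lowest in Lat-M1, and HMGCS1, SREBF2, MVD and MYLIP are highest in Lat-M1.

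Between the Lat-M pairs, 9 of the 31 genes were lower and 5 higher in Lat-M2 than in Lat-M1, where 36% of all tested genes were called (20.1% lower, 16% higher). The 9 were ACAT2, HMGCS1, MVD, IDI1, SQLE, MSMO1, DHCR7, SREBF2 and MYLIP, of which 7 are among the 19 synthesis enzymes. The 5 were NPC1L1, SCARB1, NPC2, GGPS1 and EBP. Of these, 3 are among the 6 genes of uptake, transport and storage, and 2 (GGPS1 and EBP) are synthesis enzymes. The median log2 fold change was -0.19 over the 8 mevalonate and isoprenoid enzymes and -0.022 over the 11 squalene and sterol enzymes. It was -0.28 over the 6 regulators and 0.21 over the 6 genes of uptake, transport and storage, against -0.011 for all tested genes. Scaling left the count of lower genes at 9 and raised that of higher genes to 8, with FDPS, FDFT1 and HSD17B7 added, beside 44.2% of all tested genes (22.6% lower, 21.6% higher). Of the 19 synthesis enzymes, 5 were then higher and 7 lower, with a scaled median of -0.040. The pairs did not overlap for 23 of the 31 genes, beside 68.3% of all tested genes, and 1 gene (NPC1L1) was called and at least 2-fold, beside 6.72%. The 9 lower genes became 5 without Lat-M1-2, and the 5 higher genes became 8 without Lat-M2-2.

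Other genes of sterol and lipid metabolism, in 6 further lists, were set beside these. Over all tested genes 12.7% were higher and 2.24% lower in Lat-M2 against PA, and 33.2% higher and 11.6% lower in Lat-M1 against PA; after scaling these shares were 7.44% and 8.42%, and 23.9% and 23%. The lipogenic enzymes, which share SREBP control, had 4 of 12 higher and 1 lower in Lat-M2 against PA, and 5 higher and 2 lower in Lat-M1 against PA. After scaling 2 were higher and 2 lower in Lat-M2, and 5 were higher and 4 lower in Lat-M1. ELOVL6, a fatty acid elongase, averaged 2.73 ± 0.170 TPM in Lat-M2, 4.69 ± 0.0934 TPM in Lat-M1 and 0.402 ± 0.0226 TPM in PA (SD), a log2 fold change of 1.41 and 2.02. Since it stayed under 1 TPM in PA, it passed the filter through the Lat-M libraries. ACLY, which supplies cytosolic acetyl-CoA, averaged 610 ± 55.5 TPM in Lat-M2, 715 ± 25.03 TPM in Lat-M1 and 512 ± 3.31 TPM in PA, a rise of 0.25 ± 0.066 (limma adjusted p = 0.0469, and 0.153 scaled) and 0.48 ± 0.066 (limma adjusted p = 0.00101). ELOVL5, an elongase of polyunsaturated fatty acids, was lower, at 228 ± 12.6 TPM in Lat-M2, 151 ± 0.225 TPM in Lat-M1 and 279 ± 3.01 TPM in PA (-0.29 and -0.89).

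Genes of SREBP processing and sterol-regulated degradation had 4 of 13 higher in Lat-M2 and 9 of 13 in Lat-M1 against PA, and none lower, beside 12.7% and 33.2% of all tested genes higher. After scaling 1 was lower in Lat-M2 and 3 were lower in Lat-M1. MBTPS1, the first Golgi protease that cuts SREBP, averaged 39.0 ± 2.31 TPM in Lat-M2, 44.7 ± 1.16 TPM in Lat-M1 and 31.2 ± 0.864 TPM in PA. SEC24A, a coat protein of vesicles leaving the endoplasmic reticulum, averaged 22.3 ± 2.01, 24.3 ± 1.39 and 16 ± 0.468 TPM in Lat-M2, Lat-M1 and PA. INSIG2, the other INSIG protein, averaged 25.3 ± 1.82, 27.1 ± 0.754 and 18.6 ± 0.885 TPM in Lat-M2, Lat-M1 and PA (0.42 ± 0.070, limma adjusted p = 0.0129, and 0.52 ± 0.070, limma adjusted p = 0.000984). These 3 kept their calls in both pairs after scaling.

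The list of oxysterol enzymes and further liver X receptor targets held genes that were lower. Of 10 genes on that list 4 were tested, and 2 were lower in Lat-M2 and 4 in Lat-M1 against PA, with none higher, beside 2.24% and 11.6% of all tested genes lower. After scaling 3 were lower in Lat-M2 and 4 in Lat-M1. CYP27A1 and NR1H4 stayed under 1 TPM in Lat-M1 and passed the filter through the other groups, so these counts cannot be read as support. CYP27A1, the mitochondrial enzyme that makes an oxysterol and bile acid precursor, averaged 3.97 ± 0.613 TPM in Lat-M2, 0.211 ± 0.120 TPM in Lat-M1 and 11.95 ± 0.922 TPM in PA (-1.39 ± 0.13, limma adjusted p = 0.00114, and -3.42 ± 0.13, limma adjusted p = 2.08e-06). SMPDL3A, a secreted phosphodiesterase, averaged 142 ± 4.53 TPM in Lat-M2, 18.7 ± 1.25 TPM in Lat-M1 and 169.7 ± 1.29 TPM in PA (-0.26 and -3.11). NR1H4, the bile acid receptor, averaged 1.30 ± 0.153 TPM in Lat-M2, 0.0136 ± 0.0192 TPM in Lat-M1 and 2.32 ± 0.214 TPM in PA, and was called lower in Lat-M1 (-1.71, limma adjusted p = 0.000199) and not in Lat-M2 (-0.53, limma adjusted p = 0.0729), where scaling gave a call (-0.62, scaled limma adjusted p = 0.0382), with a difference between the pairs of 1.18 ± 0.18 (limma adjusted p = 0.00231).

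Lipoprotein receptors and sorting genes had 2 of 6 tested members higher in Lat-M2 and 5 of 6 in Lat-M1 against PA, with none lower in either, beside 12.7% and 33.2% of all tested genes higher, and scaling left these counts. LRP10 averaged 27.9 ± 0.904, 40.2 ± 1.56 and 24.1 ± 1.22 TPM in Lat-M2, Lat-M1 and PA, LRP1, a large endocytic receptor, 2.81 ± 0.102, 5.05 ± 0.333 and 2.15 ± 0.327 TPM, and LRP8, a receptor for apolipoprotein E and reelin, 24.98 ± 0.518, 24.8 ± 0.778 and 18.8 ± 0.868 TPM. Other sterol transfer and storage genes were split in Lat-M1 against PA, with 6 of 15 higher and 5 lower, and in Lat-M2 2 were higher and none lower, beside 33.2% and 11.6% (Lat-M1) and 12.7% and 2.24% (Lat-M2) of all tested genes. After scaling 6 were higher and 6 lower in Lat-M1, and 1 was higher and 3 lower in Lat-M2. The oxysterol-binding proteins OSBPL3, OSBPL8 and OSBPL1A were lower in Lat-M1 (-1.11, -0.80 and -0.75) and were not called in Lat-M2 against PA, where scaling called OSBPL3 lower (-0.32, scaled limma adjusted p = 0.0303; -0.17 unscaled). Other isoprenoid and sterol enzymes had 2 of 13 higher in Lat-M2, and 5 higher and 1 lower in Lat-M1, and after scaling 2 higher and 1 lower in Lat-M2, and 3 higher and 5 lower in Lat-M1. LBR, a sterol reductase and lamin receptor, was higher in both (0.34 and 0.43), RABGGTB, a subunit of the enzyme that attaches geranylgeranyl groups to Rab proteins, was higher in Lat-M1 (0.36), and ACAT1, the mitochondrial thiolase, was lower in Lat-M1 (-0.57 ± 0.061, limma adjusted p = 0.000331), the opposite of the cytosolic ACAT2. After scaling ACAT1 was also lower in Lat-M2 (-0.13, scaled limma adjusted p = 0.041; 0.019 unscaled).

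**Figure D4:**
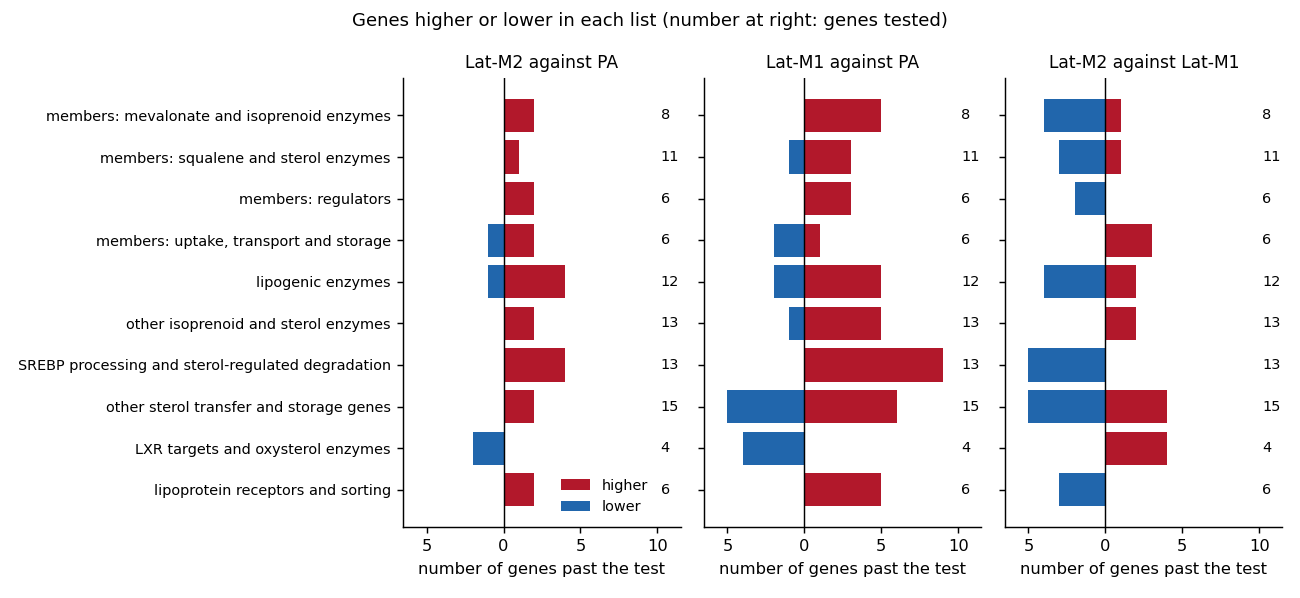
Number of genes past the test in each list, higher to the right of 0 in red and lower to the left in blue, with the number tested at the right of each row, for Lat-M2 against PA, Lat-M1 against PA and Lat-M2 against Lat-M1. The squalene and sterol enzymes had 1 of 11 higher in Lat-M2 and 3 of 11 in Lat-M1, beside 12.7% and 33.2% of all tested genes. All 4 tested genes on the liver X receptor and oxysterol list were lower in Lat-M1, beside 11.6% of all tested genes. That count cannot be read as support, since CYP27A1 and NR1H4 passed the filter through the other groups.

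Some of these values may hold reads of other genes. By GENCODE v29, ACAT2 shares exon bases with TCP1 on the other strand (9.23% of its exon bases, with TCP1 at 213 to 297 TPM), MVK with MMAB, GGPS1 with ARID4B and NPC2 with ISCA2, and whether strand was used in counting is not given in the sources used here. The hairpin MIR4709 lies within NPC2 exons and was listed at 675 to 1164 TPM. FDPS has 8 pseudogene copies by name, of which 5 were listed at no more than 0.816 TPM, and HSD17B7 has HSD17B7P2 at up to 11.1 TPM, so levels of FDPS and HSD17B7 are uncertain where reads were split between copies.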

How the data were processed

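RNA sequencing libraries of 769-P cells were made from total RNA with the TruSeq v2 or NEBNext Ultra kit, per the labels, which do not say which kit made which library. TopHat2 2.2.4 and the build hg19 are named in the submitters' processing notes, and the quantifier and annotation are not given in the sources used here. The deposited values are TPM, a unit read from the values: each library sums to 1000000. Depth is unknown, so no counting interval is given.

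Values were taken as log2(TPM + 1), and genes averaging 1 TPM or more across all 7 libraries entered limma 3.58.1 in R 4.3.3 (trend and robust options), called at a Benjamini-Hochberg adjusted p of 0.05. Lat-M2, Lat-M1 and PA were fitted together, and Lat-M against PA in a fit of 2 groups. Fold changes are on the log2(TPM + 1) scale, which understates low genes. For 161 symbols with more than 1 identifier the one with the highest mean carries the symbol, and all listed identifiers entered the fit. The steps were tested on simulated data with known changes.

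The genes and lists were chosen with earlier results of these data known. Genes named from other lists are up to 3 per list with the smallest adjusted p in either pair against PA. The neighbours of NPC1L1 and the 5 promoters shown were chosen after values were seen. Of the genes on the 6 other lists, those not listed by symbol were not analysed here. Libraries with the same last number were not paired: their deviations from the group means correlated at -0.082 to 0.031.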

Additional observations from a re-analysis of the deposited data

Results flagged for a closer look

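Both Lat-M pairs were set against the same PA libraries, and 14 of the 31 genes differed between the pairs by a direct test (Lat-M2 against Lat-M1 in the fit of 3 groups, limma adjusted p under 0.05), which is what marked them for a closer look. The log2 fold change of Lat-M2 minus that of Lat-M1 was -0.79 for MVD, -0.74 for MYLIP, -0.44 for SQLE, -0.42 for ACAT2, -0.39 for IDI1, -0.39 for DHCR7, -0.37 for MSMO1, -0.33 for SREBF2 and -0.33 for HMGCS1. It was 1.74 for NPC1L1, 0.82 for SCARB1, 0.40 for EBP, 0.40 for NPC2 and 0.27 for GGPS1. The background is high: 36% of all tested genes differed between the pairs. Of the 14, ACAT2, MVD, IDI1, SQLE, EBP, DHCR7, NPC1L1, SCARB1 and NPC2 kept the call with any 1 library left out. The share of all called genes that kept their calls in this way was not counted. Before scaling SCARB1 was called in opposite directions against PA in the 2 pairs. After scaling it lost its call in Lat-M2, and IDI1 (-0.17 in Lat-M2, 0.20 in Lat-M1) and DHCR7 (-0.19 in Lat-M2, 0.17 in Lat-M1) were called in opposite directions.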

How the results depend on the processing

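Counts below are of the 31 genes. For Lat-M1 against PA, 12 higher and 3 lower became 12 and 8 with median-ratio scaling, 11 and 8 with the 4 structural RNAs left out, 3 and 0 at 2-fold or more and 2 and 0 in a test against a 1.5-fold change, and ranged from 11 to 15 and stayed at 3 with 1 library left out. For Lat-M2 against PA, 7 higher and 1 lower became 4 and 5 with scaling, 6 and 3 without structural RNAs, 1 and 0 at 2-fold or more, 1 and 0 against 1.5-fold and 2 and 1 with no filter, and ranged from 1 to 11 and stayed at 1 with 1 library left out. For Lat-M2 against Lat-M1, 5 higher and 9 lower became 8 and 9 with scaling, 10 and 9 without structural RNAs, 1 and 0 at 2-fold or more and 1 and 0 against 1.5-fold, and ranged from 4 to 8 and from 5 to 9. For Lat-M against PA, 1 higher and 0 lower became 2 and 0 at a pseudocount of 0.1, 0 and 0 with no filter, 1 and 1 at a minimum of 5 TPM, 0 and 1 with scaling, 0 and 0 without structural RNAs, at 2-fold or more and against 1.5-fold, and 13 and 2 as the mean of both pairs in the fit of 3 groups, and ranged from 0 to 4 and from 0 to 1. Where limma counts of 0 stand for Lat-M against PA, 7 to 10 of the 31 had an unadjusted p under 0.05, and 1 against 1.5-fold. Over all tested genes the test against 1.5-fold called 767 higher and 429 lower for Lat-M1 against PA. It called 92 and 33 for Lat-M2 against PA, 457 and 506 for Lat-M2 against Lat-M1, and 12 and 2 for Lat-M against PA. Calls at 2-fold or against 1.5-fold are fewer because the criterion is stricter, and the cause of the other changes was not tested.

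The last number of the library names, as a replicate block, gave 12 and 3 for Lat-M1 against PA, 1 and 1 for Lat-M2 against PA, 4 and 9 for Lat-M2 against Lat-M1 (2 and 4 among Lat-M libraries alone) and 0 and 0 for Lat-M against PA. Over all tested genes the block gave 4515 higher and 1393 lower for Lat-M1 against PA, and 755 and 188 for Lat-M2 against PA. For Lat-M2 against Lat-M1 it gave 2105 and 2690 (2142 and 2637 among Lat-M libraries alone). The last numbers of the names did not pair the libraries.

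Signs turned for 4 values near 0. FDPS in Lat-M1 (0.065) was -0.11 scaled and -0.13 without structural RNAs, both called. FDFT1 in Lat-M1 (0.058) was -0.12 and -0.14, both called. EBP in Lat-M2 (0.00016) was -0.15 scaled (called), -0.10 without structural RNAs and -0.0068 under the block. Its range was -0.048 to 0.048 with 1 library left out. IDI1 in Lat-M2 (-0.013) was 0.0014 under the block and -0.068 to 0.042 with 1 library left out. Of 73 other gene and comparison pairs called neither way, 76 of 1142 values under alternatives had the other sign, and none of those 76 was called. Of the 1142 values, 34 were called, all with the sign of the main value. Over all tested genes the calls in Lat-M2 against PA, 2119 higher and 375 lower, were 1243 and 1406 scaled, 1535 and 879 without structural RNAs, 291 and 201 without Lat-M2-1, and 1250 and 279 with no filter. For Lat-M1 against PA, 5558 and 1941 became 3998 and 3842 scaled. For Lat-M2 against Lat-M1, 2668 higher became 4401 without structural RNAs. For Lat-M against PA, 420 and 65 became 113 and 95 scaled, 76 and 31 with no filter, 0 and 0 under the block, 5040 and 1066 as the mean of both pairs, and ranged from 14 to 1732 and from 4 to 129 with 1 library left out. Depth is unknown, so what depth limits cannot be given.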
